A study of Danio rerio with 12 samples.

Results

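Fatty acid oxidation genes encode the enzymes and carriers that take fatty acids apart for energy. The 34 genes described here were chosen by name, as a list of pathway members, out of 26873 genes in the deposited files. The list was made with earlier results of these data known, so counts and medians over it were not tested. For 33 of the genes the name was found in the listed case, and etfa was found only in capitals (ETFA, ENSDARG00000101631). All 34 passed the filter on low values, which asked for 10 or more in 3 or more libraries and left 22320 genes for the tests.

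The libraries were made from whole wild-type zebrafish larvae at 5 days post fertilization. Larvae had been kept from day 2 to day 5 in water with perfluorooctanesulfonate (PFOS, given as the potassium salt), a persistent surfactant, at 0.03, 0.3 or 1 ppm, and control larvae in water without it. All 4 groups, the control included, carried 0.2% DMSO as solvent. Each group had 3 libraries and each library was 10 pooled larvae. Whether replicates are separate clutches is not stated in the labels, and p-values therefore measure the spread between these libraries, which may be technical.

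A long-chain fatty acid is first joined to coenzyme A by acyl-CoA synthetases and is then carried into the mitochondrion as a carnitine ester. Inside, a dehydrogenase, a hydratase, a second dehydrogenase and a thiolase shorten it by repeated turns. Electron transfer flavoproteins pass the electrons of the first dehydrogenase on to the respiratory chain. Peroxisomes run a parallel pathway for very long and branched chains, in which an acyl-CoA oxidase makes hydrogen peroxide that catalase removes. In rodents PFOS activates PPAR alpha, a nuclear receptor that controls many of these genes, and liver, intestine, heart and muscle use the pathway heavily.

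The values are normalised read counts, rounded to whole numbers by the authors, and sum to between 24061372 and 31907243 per library. Genes were compared between groups only, not with each other, because the values are not corrected for gene length. Fold changes were fitted with limma on log2(value + 1) over all 12 libraries and 22320 genes, and calls were made at 0.05 after Benjamini-Hochberg adjustment over those genes. The replicate 2 libraries stood apart in skin transcripts: 10 epidermis markers took 7.31% to 9.99% of the counts there and 4.21% to 6.74% in the other 8 libraries.

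With all libraries weighted alike, no fatty acid oxidation gene was called at any dose. At 1 ppm against the control, limma called 0 of the 34 and 3 had an unadjusted p under 0.05, all higher. These were acad11, catalase (cat) and the peroxisomal thiolase acaa1. With a weight estimated for each library limma called those 3, at adjusted p = 0.0233 for acad11, 0.0388 for cat and 0.0493 for acaa1. That weighted fit called 768 of the 22320 genes tested at 1 ppm, 335 of them higher. It gave control replicate 3 a weight of 5.74 and the other libraries 0.355 to 1.49. That library held the lowest control value of all 3 genes (315 for acad11, 1511 for cat and 430 for acaa1). In the unweighted fit the count under 0.05 was 1 without control replicate 3, 1 without 1 ppm replicate 3 and 0 without all replicate 1 libraries. In the unweighted fit of all 12 libraries the 3 genes under 0.05 were 8.82% of the 34 members. Among all genes tested 4.74% had such a p in that fit, 2.14% being higher, and 0.139% were called at 1 ppm. By the fitted value 30 of 34 members were higher at 1 ppm, with a median log2 fold change of 0.14, whereas 48.3% of all genes were higher and their median was -0.0093. The differences were small, the members' log2 fold changes ranging from -0.09 to 0.56.

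At the lower doses the median of the list was close to 0, and it moved with single libraries and, at 0.03 ppm, with the scaling. At 0.03 ppm 17 of 34 members were higher (median log2 fold change 0.0074, against -0.02 over all genes, 46.6% of which were higher), and at 0.3 ppm 23 of 34 (median 0.02, against -0.0064 over all genes, 48.8% of which were higher). Without 0.03 ppm replicate 3 the median at 0.03 ppm was 0.11 with 26 members higher. After rescaling to equal totals the median at 0.03 ppm was 0.066 with 25 members higher, and that of all genes was 0.04. At 0.3 ppm the members' median was 0.13 with 27 higher without replicate 2 of that dose, and -0.10 with 9 higher without its replicate 3. At each of these doses limma called 0 members and 0 had an unadjusted p under 0.05. Of all genes, 0.0582% were called at 0.03 ppm and 0.13% at 0.3 ppm, and 3.49% and 2.82% had an unadjusted p under 0.05. Over the order of the 4 groups 32 of 34 fitted slopes were positive, against 49.3% of all genes. Neither that slope nor the joint test of the 3 doses called a member, with 1 member (acad11) under an unadjusted p of 0.05 in each, against 5.56% and 2.34% of all genes, and 0.0134% and 0.0941% of all genes called.

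**Figure D1:**
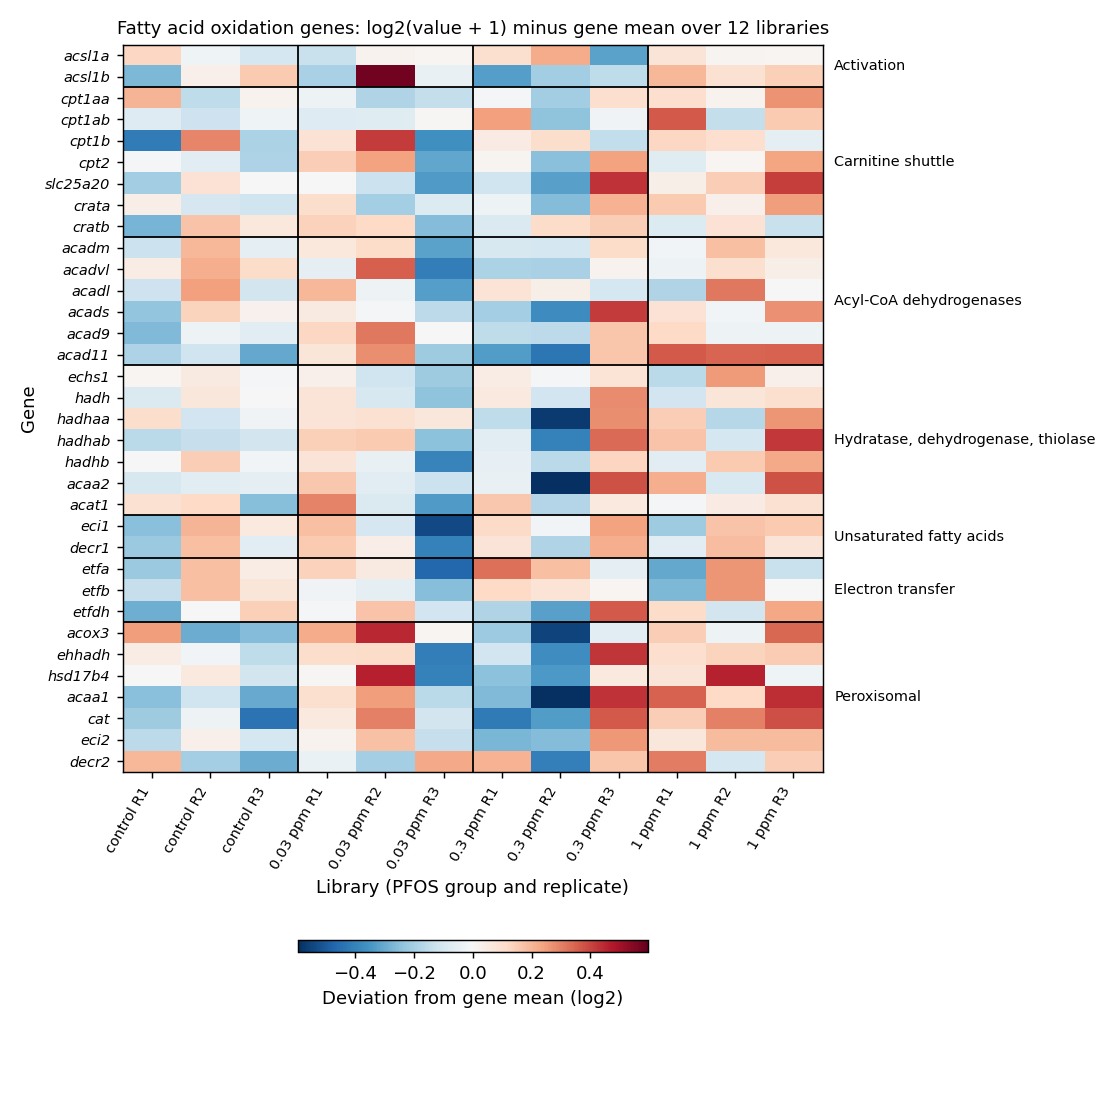
Each row is a fatty acid oxidation gene, grouped by step, and each column a library, in order of dose. Colour is log2(value + 1) minus the gene's mean over the 12 libraries. The 0.03 ppm replicate 3 and 0.3 ppm replicate 2 columns are the bluest, with the lowest value of 14 and 12 of the 34 genes, and acad11 is high in all 3 libraries of 1 ppm.

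Activation of fatty acids was represented by acsl1a and acsl1b, paralogous long-chain acyl-CoA synthetases. acsl1a (ENSDARG00000030514) had 818, 739 and 700 normalised counts in control libraries, 686, 763 and 758 at 0.03 ppm, 803, 876 and 603 at 0.3 ppm and 793, 761 and 757 at 1 ppm. acsl1b (ENSDARG00000003854) had 1955, 2397 and 2615 in control libraries, 2055, 3501 and 2280 at 0.03 ppm, 1874, 2034 and 2116 at 0.3 ppm and 2695, 2498 and 2592 at 1 ppm. The groups overlapped for both genes at every dose, and a single library, 0.03 ppm replicate 2, held the highest acsl1b value. At 1 ppm the log2 fold change was 0.04 for acsl1a (SE 0.147) and 0.17 for acsl1b (SE 0.185).

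The carnitine shuttle comprised 7 genes. Carnitine palmitoyltransferase 1, which makes the carnitine ester at the outer mitochondrial membrane and sets the rate of the pathway, is encoded by cpt1aa and cpt1ab (related to the mammalian liver form) and cpt1b (related to the muscle form). cpt1aa (ENSDARG00000059770) had 615, 481 and 543 normalised counts in control libraries, 523, 473 and 485 at 0.03 ppm, 533, 464 and 574 at 0.3 ppm and 574, 542 and 644 at 1 ppm. cpt1ab (ENSDARG00000062054) had 1988, 1929 and 2062 in control libraries, 1988, 1999 and 2108 at 0.03 ppm, 2486, 1780 and 2067 at 0.3 ppm and 2705, 1903 and 2338 at 1 ppm. The 3 control values of cpt1ab lay close together, while the 1 ppm values spread on both sides of them. cpt1b (ENSDARG00000058285) had 646, 1054 and 757 in control libraries, 915, 1153 and 669 at 0.03 ppm, 892, 928 and 780 at 0.3 ppm and 941, 926 and 829 at 1 ppm. The control libraries of cpt1b alone covered a wider range than those of 1 ppm, and lay on both sides of them.

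At 1 ppm against the control the log2 fold change was 0.11 for cpt1aa, 0.20 for cpt1ab and 0.16 for cpt1b. The 95% interval of that difference ran from -0.20 to 0.41 for cpt1aa, from -0.13 to 0.54 for cpt1ab and from -0.29 to 0.62 for cpt1b. A doubling of any of these 3 transferase transcripts at 1 ppm therefore lay outside its interval, unadjusted for the number of genes.

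Carnitine acetyltransferase, which exchanges short acyl groups, is encoded by crata and cratb. crata (ENSDARG00000040248) had 1023, 929 and 919 normalised counts in control libraries, 1071, 867 and 940 at 0.03 ppm, 977, 833 and 1151 at 0.3 ppm and 1111, 1016 and 1185 at 1 ppm. cratb (ENSDARG00000098782) had 259, 354 and 328 in control libraries, 346, 341 and 263 at 0.03 ppm, 296, 339 and 348 at 0.3 ppm and 297, 334 and 287 at 1 ppm. For crata the highest control value just exceeded the lowest value at 1 ppm, and the groups of cratb overlapped fully. Their log2 fold changes at 1 ppm were 0.20 (SE 0.144) and -0.03 (SE 0.166). cpt2, which turns the ester back into acyl-CoA inside the mitochondrion, and slc25a20, the carrier that brings it across the inner membrane, had log2 fold changes of 0.15 and 0.24 at 1 ppm. slc25a20 averaged 2016 ± 275 at 1 ppm and 1706 ± 174 in the control (SD, n = 3 each). Over the shuttle, 6 of 7 genes were higher at 1 ppm with a median of 0.16, and 0 were called or had an unadjusted p under 0.05.

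The acyl-CoA dehydrogenases take the first electrons from the chain, each for its own range of chain lengths. acad11 (ENSDARG00000045411), a family member that in mammals acts on long chains, showed the largest fold change of the 34 genes at 1 ppm. It had 501, 496 and 497 normalised counts at 1 ppm, against 343, 359 and 315 in control libraries. The 1 ppm libraries lay above all 9 others and almost on top of each other. At 0.03 ppm acad11 had 410, 472 and 336 and at 0.3 ppm 309, 289 and 436, so the values did not climb step by step with dose. Its log2 fold change at 1 ppm was 0.56 (SE 0.175, 1.47-fold, n = 3), which did not pass (limma adjusted p = 0.708, unadjusted p = 0.00776).

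acad9 (ENSDARG00000055620), which is also an assembly factor of respiratory complex I, had 458, 523 and 421 normalised counts at 0.03 ppm, against 350, 412 and 401 in control libraries. It was the single member whose 0.03 ppm libraries all lay above the control libraries, and it did not pass (limma adjusted p = 0.998). At 0.3 ppm it had 379, 377 and 472, and at 1 ppm 456, 411 and 412, both overlapping the control. acadvl (ENSDARG00000016687), the very long chain enzyme, had 3195, 3192 and 3698 at 0.3 ppm, against 3756, 4237 and 3931 in control libraries. It was the single member whose 0.3 ppm libraries all lay below the control libraries, with a log2 fold change of -0.24 that did not pass (unadjusted p = 0.179 in the limma fit). At 0.03 ppm acadvl had 3512, 4666 and 2738, the widest spread of its groups, and at 1 ppm 3575, 3896 and 3739. It had the lowest log2 fold change of the 34 genes at 1 ppm, -0.09 (SE 0.171). acadm, acadl and acads, for medium, long and short chains, had log2 fold changes of 0.07, 0.04 and 0.14 at 1 ppm.

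The next steps add water, oxidise again and split off acetyl-CoA. For long chains they are carried out by the mitochondrial trifunctional protein, with alpha subunits from hadhaa and hadhab and a beta subunit from hadhb. hadhab (ENSDARG00000060594) had 2479, 2052 and 2950 normalised counts at 1 ppm, against 1969, 2005 and 2040 in control libraries. Its 3 control libraries lay close together and every 1 ppm library was above them, replicate 2 only just. hadhab had 2432, 2453 and 1859 at 0.03 ppm and 2113, 1665 and 2784 at 0.3 ppm, and its log2 fold change at 1 ppm was 0.30 (SE 0.194, unadjusted p = 0.149 in the limma fit).

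hadhaa (ENSDARG00000057128) had 894, 718 and 971 normalised counts at 1 ppm, against 869, 747 and 796 in control libraries. It had 851, 861 and 848 at 0.03 ppm and 728, 544 and 979 at 0.3 ppm. Replicate 2 was lowest and replicate 3 highest in both upper doses, for hadhaa as for hadhab, and the 1 ppm and control groups of hadhaa overlapped, with a log2 fold change of 0.09. hadhb and hadhaa are adjacent genes in the RefSeq annotation of GRCz12tu. hadhb, which the files list as a processed transcript, averaged 3326 ± 343 at 1 ppm and 3178 ± 204 in the control (SD, n = 3 each), a log2 fold change of 0.06.

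acaa2 (ENSDARG00000038881), a mitochondrial thiolase, had 3678, 2975 and 4121 normalised counts at 1 ppm, against 2968, 3027 and 3054 in control libraries. It had 3542, 3027 and 2900 at 0.03 ppm and 3073, 2098 and 4113 at 0.3 ppm. The control libraries lay close together, while the 0.3 ppm libraries differed by nearly the full range of the gene over all 12 libraries, a factor of 1.96. Its log2 fold change at 1 ppm was 0.24 (SE 0.211). echs1, the short-chain hydratase, and hadh, the matching dehydrogenase, had log2 fold changes of 0.02 each, and acat1, the thiolase that acts on acetoacetyl-CoA, one of 0.06. All 7 genes of these steps were higher at 1 ppm, with a median of 0.06 and 0 called.

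Double bonds of unsaturated chains are moved or reduced by eci1 and decr1. eci1 (ENSDARG00000018002) had 859, 1175 and 1066 normalised counts in control libraries, 1156, 953 and 705 at 0.03 ppm, 1105, 1012 and 1207 at 0.3 ppm and 882, 1150 and 1138 at 1 ppm. decr1 (ENSDARG00000003869) had 663, 874 and 741 in control libraries, 861, 794 and 584 at 0.03 ppm, 816, 683 and 897 at 0.3 ppm and 741, 878 and 816 at 1 ppm. For both genes 0.03 ppm replicate 3 was the lowest of the 12 libraries, and the groups overlapped at every dose. At 1 ppm their log2 fold changes were 0.03 (SE 0.191) and 0.10 (SE 0.174).

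The electron transfer flavoprotein (etfa and etfb) and its ubiquinone oxidoreductase (etfdh) collect the electrons of the acyl-CoA dehydrogenases. etfa had 1677, 2216 and 2018 normalised counts in control libraries, 2147, 2029 and 1412 at 0.03 ppm, 2452, 2216 and 1879 at 0.3 ppm and 1584, 2345 and 1785 at 1 ppm. etfdh (ENSDARG00000038834) had 1220, 1491 and 1646 in control libraries, 1481, 1677 and 1379 at 0.03 ppm, 1316, 1190 and 1922 at 0.3 ppm and 1608, 1383 and 1748 at 1 ppm. The 1 ppm libraries of etfa lay on both sides of the control values, and those of etfdh overlapped them. The log2 fold changes at 1 ppm were -0.06 for etfa, -0.04 for etfb and 0.13 for etfdh, so this was the single step with more members lower than higher (1 of 3 higher).

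The 7 peroxisomal genes had the highest median log2 fold change among the steps at 1 ppm, 0.22, with 7 of 7 higher and 0 called. acaa1 (ENSDARG00000004687), the thiolase that ends each peroxisomal turn, had 676, 574 and 718 normalised counts at 1 ppm, against 445, 488 and 430 in control libraries. All 3 libraries of 1 ppm were above the control libraries, replicate 2 by the smallest step. acaa1 had 566, 629 and 473 at 0.03 ppm and 441, 350 and 713 at 0.3 ppm, where replicate 2 was the lowest and replicate 3 nearly the highest of all 12 libraries. Its log2 fold change at 1 ppm was 0.52 (SE 0.222, 1.44-fold, n = 3), with a limma unadjusted p of 0.0351, and did not pass.

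Catalase, which removes the hydrogen peroxide made by peroxisomal oxidases, followed a like course. cat (ENSDARG00000104702) had 2266, 2520 and 2670 normalised counts at 1 ppm, against 1768, 2004 and 1511 in control libraries. It had 2132, 2519 and 1897 at 0.03 ppm and 1531, 1627 and 2643 at 0.3 ppm. The 1 ppm libraries lay above the control libraries, but 0.3 ppm replicate 3 and 0.03 ppm replicate 2 lay within their range. The log2 fold change at 1 ppm was 0.50 (SE 0.201, 1.42-fold, n = 3; limma adjusted p = 0.958, unadjusted p = 0.0273).

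eci2, an enoyl-CoA isomerase, and ehhadh, the bifunctional enzyme of the peroxisomal pathway, also had all 1 ppm libraries above the control libraries, by a narrower margin. eci2 had 1129, 1283 and 1169 normalised counts in control libraries, 1274, 1417 and 1143 at 0.03 ppm, 1040, 1050 and 1501 at 0.3 ppm and 1318, 1430 and 1432 at 1 ppm. ehhadh had 335, 321 and 293 in control libraries, 349, 351 and 244 at 0.03 ppm, 300, 251 and 437 at 0.3 ppm and 348, 356 and 361 at 1 ppm. In both genes 0.3 ppm replicate 3 exceeded every 1 ppm library. The log2 fold changes were 0.22 (SE 0.155) for eci2 and 0.17 (SE 0.204) for ehhadh. acox3, an acyl-CoA oxidase of branched chains, had a log2 fold change of 0.26 at 1 ppm, and its values over the 12 libraries spanned 2.01-fold. hsd17b4, a multifunctional enzyme of the same pathway, had 0.18 and decr2, a reductase for unsaturated chains, 0.21.

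**Figure D2:**
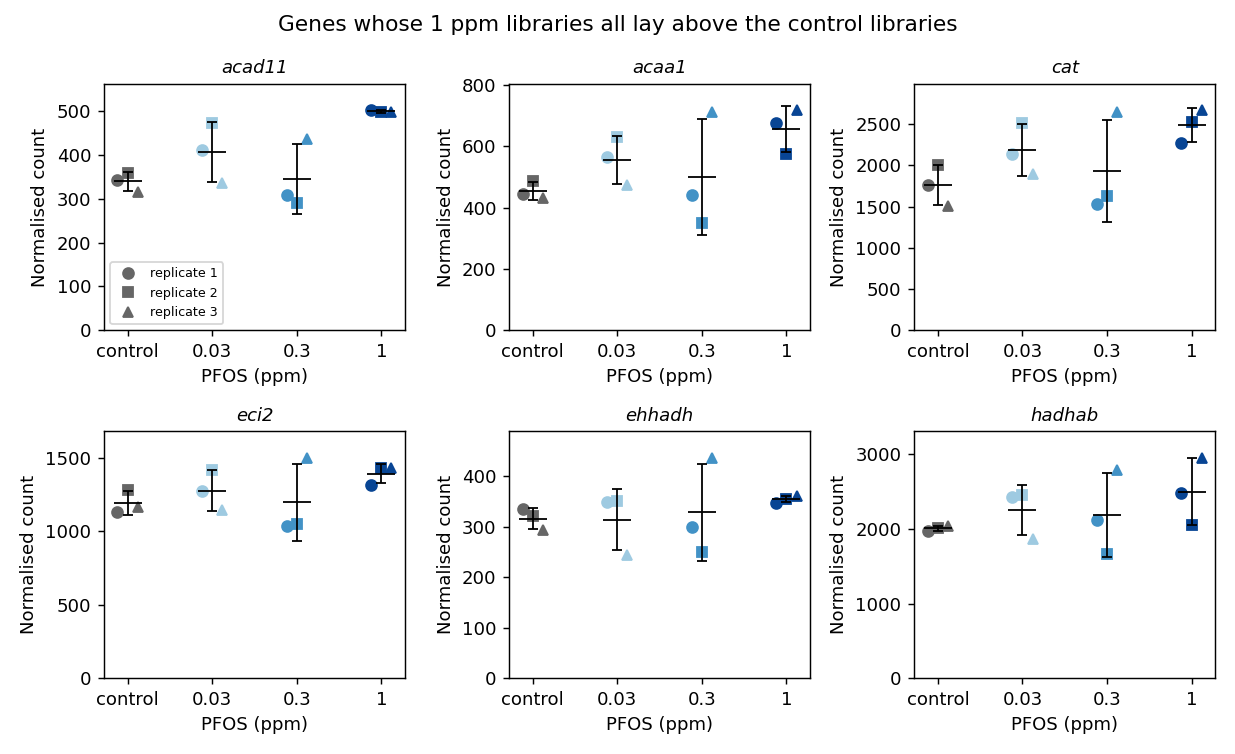
Normalised counts of the 6 genes whose 1 ppm libraries all lay above the control libraries, by group, with symbols for the replicate and black bars for the mean ± SD (n = 3). In all 6 genes replicate 3 is the highest library at 0.3 ppm, as for cat with 1531, 1627 and 2643 normalised counts in that group.

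In all, 6 of 34 members (17.6%), acad11, hadhab, acaa1, cat, eci2 and ehhadh, had every 1 ppm library above every control library, where 4.41% of all genes did, and 0 members lay below, where 4.33% of all genes did. Of these 6 members, 4 were grouped here as peroxisomal, and acad11 was counted among the mitochondrial steps. The compartment of the products was not measured. Such separation above the control at 1 ppm was also seen in 8 of 46 other fatty acid breakdown genes, 6 of 18 liver markers and 3 of 10 intestine markers. It was seen in 1 of 7 heart, 1 of 7 kidney tubule, 0 of 15 skeletal muscle and 0 of 10 epidermis markers. Every 1 ppm library was below every control library for 2 of 15 skeletal muscle markers, ckma and ckmb, against 4.33% of all genes. For the other lists named so far that count was 0. Among PPAR regulators 1 of 18 lay above the control and 2 below, and among PPAR targets 1 of 14 above and 2 below. Among peroxins 0 of 17 lay above and 1 below. Comparing 3 libraries with 3 by exact permutation cannot give a two-sided p below 0.1. At 0.03 ppm 1 member, acad9, lay above the control and 0 lay below, against 3.54% and 3.86% of all genes. At 0.3 ppm 0 members lay above and 1, acadvl, below, against 3.47% and 3.62% of all genes.

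**Figure D3:**
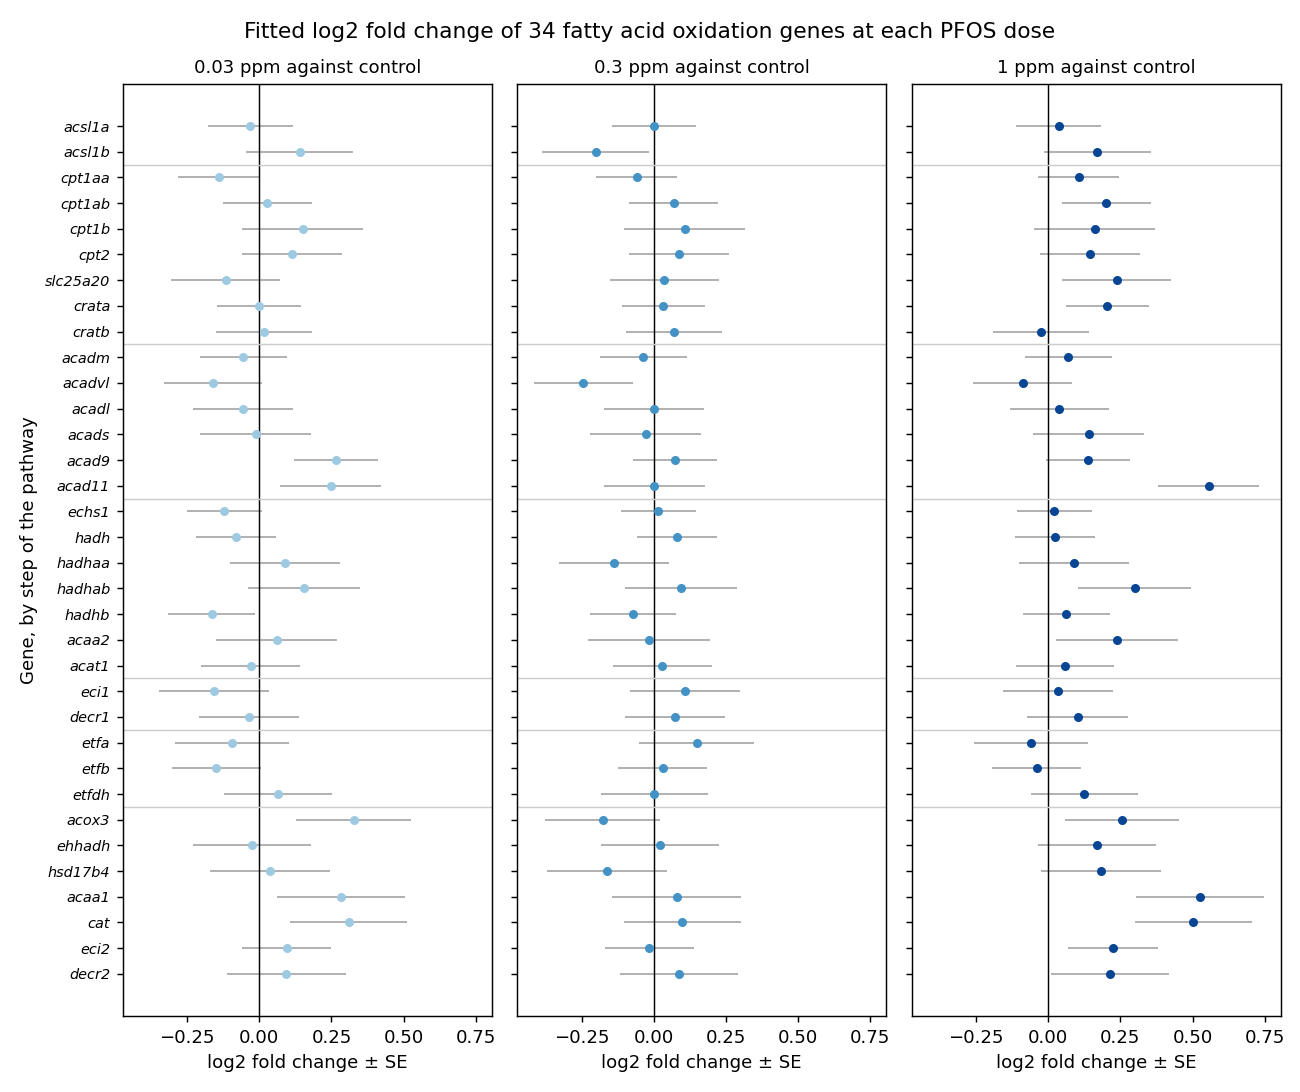
Fitted log2 fold change against the control, with its standard error, for the 34 genes at 0.03, 0.3 and 1 ppm, lines separating the steps in the order of the text. At 1 ppm 30 of 34 points lie above 0, the farthest being acad11 at 0.56, acaa1 at 0.52 and cat at 0.50.

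The precision of these comparisons is set by 3 libraries per group. Standard errors of the members' log2 fold changes lay between 0.130 and 0.222. At 1 ppm the 95% interval, unadjusted for the number of genes, stayed within a 2-fold change in either direction for 33 of 34 members, acaa1 reaching 1.01 on the log2 scale, and within a 1.5-fold change for 23. At 0.03 and 0.3 ppm all 34 stayed within a 2-fold change.

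Set against the lowest dose, larvae at 1 ppm had 31 of 34 members higher, with a median log2 fold change of 0.13, whereas 52.5% of all genes were higher and their median was 0.01. limma called 0 members in that comparison and 0 had an unadjusted p under 0.05, where 0.00448% of all genes were called and 2.95% had such a p. The 1 ppm libraries lay above all 0.03 ppm libraries for 3 members, cpt1aa, slc25a20 and acad11, against 2.89% of all genes, and below them for 0, against 3.51% of all genes. Without 0.03 ppm replicate 3 only 18 of 34 members were higher at 1 ppm than at 0.03 ppm. Tissue markers moved in the same comparison, and their part in it was not tested. Of 15 skeletal muscle markers 15 were higher at 1 ppm than at 0.03 ppm (median log2 fold change 0.21). However, 12 of the 15 had their lowest value in 0.03 ppm replicate 3, and only 7 were higher at 1 ppm than in the control. Also higher than at 0.03 ppm were 15 of 18 liver (median 0.49), 9 of 10 intestine (median 0.36) and 6 of 7 heart markers (median 0.34). The same held for 7 of 7 kidney tubule (median 0.61) and 0 of 10 epidermis markers (median -0.25), with 0 called in each list.

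Much of the variation of these genes lay between libraries of the same group. The lowest of the 12 values was in 0.03 ppm replicate 3 for 14 of the 34 genes and in 0.3 ppm replicate 2 for 12. The highest was in 0.3 ppm replicate 3 for 9, and in 0.03 ppm replicate 2 and 1 ppm replicate 3 for 7 each. At 1 ppm the count of members higher than in the control stayed between 26 and 33 whichever library of these groups, or whichever replicate number, was left out.

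Markers of some tissues that use the pathway moved with some of these libraries, and their part in the values was not tested. In whole larvae, more cells of a tissue and more RNA per cell cannot be told apart. Of 18 liver markers tested, 16 were higher at 1 ppm, with a median log2 fold change of 0.55, 0 called and 5 at an unadjusted p under 0.05. Their share of all counts was 1.18% to 1.30% at 1 ppm and 0.806% to 1.15% in the control. That share leaned on the most abundant markers, apoa2 and rbp4, whose 1 ppm and control libraries overlapped. apoa2 had 126307, 229126 and 137152 normalised counts at 1 ppm, against 157671, 187097 and 102628 in control libraries. rbp4 had 55147, 83756 and 49815 at 1 ppm, against 43362, 88311 and 62300 in control libraries. fabp10a, the liver fatty acid binding protein, had 10938, 13627 and 14686 normalised counts at 1 ppm, against 9689, 9769 and 4268 in control libraries, and tfa (transferrin) and apobb.1 (an apolipoprotein B) were 2.06-fold and 2.05-fold higher without passing. The library with the lowest liver markers among the controls was replicate 3, at a median of -0.55 from the gene means, and its peroxisomal genes were at -0.26. A single liver marker, hp, did not reach the filter (0 to 15 counts).

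All 10 intestine markers were higher at 1 ppm, with a median log2 fold change of 0.51 and 0 called, and took 0.088% to 0.149% of the counts at 1 ppm and 0.080% to 0.096% in the control. vil1, the villin of the brush border, cdh17 and apoa4a had the smallest p among them, vil1 at 3416 ± 598 at 1 ppm and 1939 ± 420 in the control (SD, n = 3 each). In 0.3 ppm replicate 2 the median deviation was -0.54 for liver markers, -0.54 for intestine markers and -0.37 for peroxisomal genes, and in 0.3 ppm replicate 3 it was 0.53, 0.38 and 0.26. The 3 lists were thus low together in replicate 2 and high together in replicate 3 of that group.

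Of 15 skeletal muscle markers, 7 were higher at 1 ppm than in the control (median log2 fold change -0.08, 0 called), with 8.93% to 9.90% of the counts at 1 ppm and 9.90% to 10.5% in the control. ckma and ckmb, the muscle creatine kinases, had log2 fold changes of -0.54 and -0.43, and pvalb1, a parvalbumin, -0.35. In 0.03 ppm replicate 3 the muscle markers were at a median of -0.51 and 12 of the 15 had their lowest value there. The 18 genes of the mitochondrial steps were at -0.25 in that library. In the 0.3 ppm group the 2 lists went opposite ways in replicates 2 and 3. Muscle markers were at 0.087 in replicate 2 and -0.17 in replicate 3, and the mitochondrial steps at -0.17 and 0.16. Heart markers were higher in 7 of 7 at 1 ppm (median 0.34), with myh6, vmhc and tnnt2a of smallest p. Kidney tubule markers were also higher in 7 of 7 (median 0.33), slc20a1a, cubn and slc12a1 having the smallest p. Epidermis markers were higher in 5 of 10 (median -0.0077), with cldne, epcam and cyt1l of smallest p. None of these 3 lists had a gene called by limma at any dose, and 1 gene of each had an unadjusted p under 0.05 at 1 ppm.

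**Figure D4:**
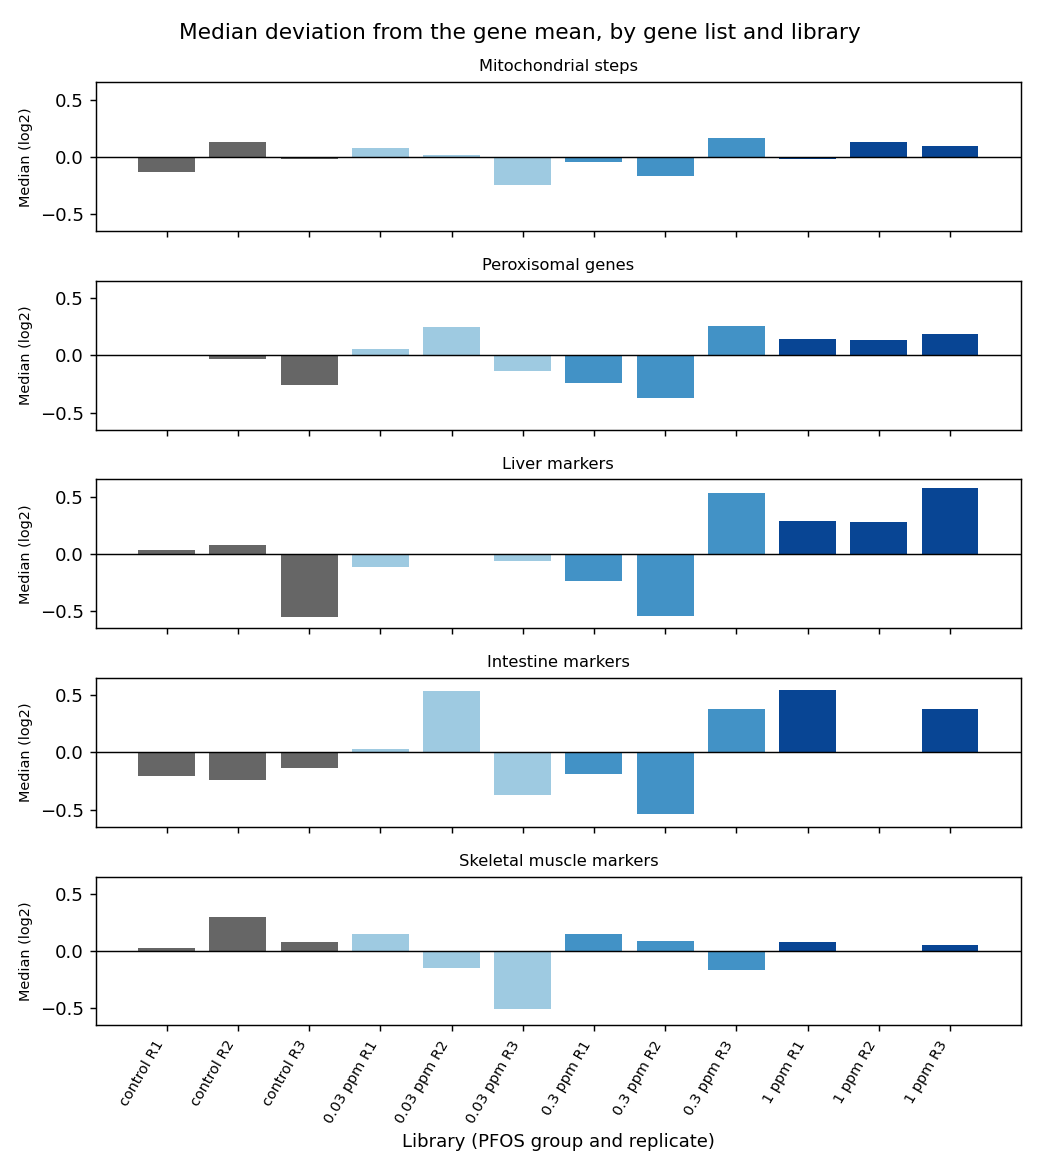
Median over each gene list of the deviation of log2(value + 1) from the gene's mean, for each library in order of dose. Peroxisomal genes, liver markers and intestine markers are low in 0.3 ppm replicate 2 (-0.37, -0.54 and -0.54) and high in 0.3 ppm replicate 3 (0.26, 0.53 and 0.38), while muscle markers are lowest in 0.03 ppm replicate 3 (-0.51).

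Other genes of fatty acid breakdown, 46 tested, were higher in 31 at 1 ppm with a median log2 fold change of 0.07 and 0 called, and 5 had an unadjusted p under 0.05, all higher. phyh, which starts the breakdown of phytanic acid in peroxisomes, had 2889, 2416 and 2701 normalised counts at 1 ppm, against 2152, 2031 and 1654 in control libraries (log2 fold change 0.46, limma adjusted p = 0.657). scp2a, a sterol carrier protein of peroxisomes, had 3325, 3181 and 3883 at 1 ppm, against 2499, 2343 and 1855 in control libraries. oxct1b, which activates ketone bodies for use, had 1062, 1246 and 1218 at 1 ppm, against 801, 820 and 386 in control libraries. These 3 genes are named because they had the smallest p of the 46 in this same comparison. For them every 1 ppm library was above every control library, as for 8 of the 46 in all and 4.41% of all genes. In each of the 3 genes control replicate 3 was the lowest of its group, and none passed.

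The receptors and coactivators that control the pathway showed no common direction. Of 18 PPAR regulators and partners, 10 were higher at 1 ppm (median log2 fold change 0.02), with 0 called by limma and 0 at an unadjusted p under 0.05. The genes of smallest p were sirt1, a deacetylase, at 624 ± 45.2 at 1 ppm and 734 ± 72.2 in the control (SD, n = 3 each), rxrga, a partner receptor of PPARs, at 158 ± 15.0 at 1 ppm and 128 ± 2.89 in the control, and pparda, a PPAR delta. All 9 PFOS libraries of sirt1 (542 to 661 normalised counts) lay below its 3 control libraries (677 to 815). The share of all genes with that pattern was not counted. The joint limma test of the doses gave sirt1 an unadjusted p of 0.152. Peroxins, which build peroxisomes, were higher in 10 of 17 (median 0.05), with 0 called and 0 at an unadjusted p under 0.05. Of these pex6, pex19 and pex3 had the smallest p, and pex6 was lower in every 1 ppm library than in every control library.

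Of 14 PPAR target and fasting genes, 7 were higher at 1 ppm (median -0.02), with 0 called and 2 at an unadjusted p under 0.05, both lower. pdk2b, a kinase that holds back pyruvate dehydrogenase and so spares glucose, had 2793, 2178 and 2068 normalised counts at 1 ppm, against 4432, 4711 and 4733 in control libraries. At 0.03 ppm it had 2354, 3604 and 2035 and at 0.3 ppm 2398, 2807 and 2077, so all 9 PFOS libraries lay below all 3 control libraries. Of all genes, 3.86% lay below the control at 0.03 ppm, 3.62% at 0.3 ppm and 4.33% at 1 ppm. The share below it at every dose was not counted. The log2 fold change of pdk2b at 1 ppm was -0.99 (SE 0.203), with a limma adjusted p of 0.153. ucp3, a mitochondrial uncoupling protein, had 974, 1171 and 720 at 1 ppm, against 1581, 1523 and 1406 in control libraries (log2 fold change -0.68, unadjusted p = 0.0329 in the limma fit). pdk4, another kinase of the same family, had 1385, 847 and 1297 at 1 ppm, against 882, 910 and 1093 in control libraries, and these groups overlapped (log2 fold change 0.26).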

How the data were processed

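Poly-A RNA of 12 libraries was sequenced from stranded libraries, per the labels' protocols. The genome build in the submitters' processing notes is GRCz10. Those notes also list, without roles, DESeq2 1.10.1 and CASAVA, and RSEM 1.2.28 with STAR 2.5.1b. The authors deposited a score per gene, called normalized counts in the file headers and rounded to whole numbers. Raw counts were not used, so no counting interval is given. The series table repeats these values and was not used, and 0 pairs of libraries were identical.

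log2(value + 1) was fitted with limma 3.58.1 in R 4.3.3 with a mean-variance trend, 1 coefficient per group, and two-sided tests adjusted over 22320 genes. Trimmed-mean-of-M-values (TMM) scaling, an alternative, was computed with the usual trimming. Figures used Python 3.11.15 and matplotlib 3.10.9. The fit was also run on simulated data, with noise drawn separately for each gene and library. That run did not cover genes that move together within a library or replicate number. Members and lists were chosen with earlier results of these data known.

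Values in every library are given for the 2 members of each step with the smallest p at 1 ppm, for the cpt1, hadha, acsl1 and crat paralogues and for the 2 lowest fold changes at 1 ppm, plus eci2 and ehhadh, chosen after their values were seen. Of each other list the 3 genes of smallest p are named. Reads of paralogues may be shared between them. Other lists were liver, intestine, skeletal muscle, heart, kidney tubule and epidermis markers, other fatty acid breakdown genes, PPAR regulators, PPAR targets and peroxins, 166 listed names, of which 163 matched and 162 were tested.

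Libraries with the same replicate number were checked for shared departures from their group means. The correlations were 0.145 to 0.286 for 0.3 ppm and the control and 0.119 to 0.478 for 1 ppm and the control. Between different numbers the highest was -0.0106 for 0.3 ppm and the control and 0.204 for 1 ppm and the control. For the same number the lowest was 0.0776 for 0.03 ppm and the control and 0.0268 for 1 and 0.03 ppm. The main fit did not use the numbers as pairs in any comparison, so its standard errors, p-values and intervals leave these shared departures out. They entered only through the replicate block, an alternative setting. No sequences are shown.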

Additional observations from a re-analysis of the deposited data

How the results depend on the processing

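Scaling, low-value filter, pseudocount, empirical Bayes step, library weights, a replicate block, the samples in the fit and the omission of each library were varied, and the omission of a whole replicate number, and all alternatives for counts of genes higher, peroxisomal genes and single genes, were added after seeing the data. With the replicate block 0 members were called in every comparison, acad11 having a limma adjusted p of 0.357 at 1 ppm. It changed no call among the members. Of all genes the block called 20 at 0.03 ppm, 43 at 0.3 ppm and 58 at 1 ppm. The main fit called 13, 29 and 31. With a weight estimated per library, 3 members were called at 1 ppm (acad11 0.63, adjusted p = 0.0233; cat 0.65, 0.0388; acaa1 0.63, 0.0493), 7 had an unadjusted p under 0.05, the peroxisomal median was 0.44 and eci1 turned to -0.067. That fit gave control replicate 3 a weight of 5.74 and the other libraries 0.355 to 1.49. Control replicate 3 held the lowest control value of acad11, cat and acaa1. The weighted fit called 768 of all genes at 1 ppm, against 31 without weights, 58 with the replicate block and 21 after rescaling to equal totals. That rescaling moved the median of all genes and of the members together at 0.03 ppm (all genes 0.04, members 0.066). The number of members higher at 0.03 ppm was then 25, against 17 in the main fit.

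Leaving out libraries or replicate numbers gave medians of -0.040 to 0.11 at 0.03 ppm (13 to 26 members higher), -0.11 to 0.16 at 0.3 ppm (7 to 28), 0.09 to 0.18 at 1 ppm (26 to 33) and 0.0022 to 0.23 for 1 against 0.03 ppm (17 to 33). The peroxisomal median at 1 ppm was 0.18 to 0.36. The number at an unadjusted p under 0.05 at 1 ppm was 0 to 3: it was 1 without control replicate 3, 1 without 1 ppm replicate 3 and 0 without replicate 1. Under these omissions the log2 fold changes at 1 ppm were -0.014 to 0.10 for acsl1a, -0.093 to 0.16 for eci1, -0.011 to 0.24 for etfdh, -0.22 to 0.064 for etfa, -0.028 to 0.36 for cpt1b, -0.0081 to 0.22 for hadhaa and -0.16 to 0.067 for cratb, so the direction of these genes turned. The cause was not tested. The setting with library weights was the only alternative that called a member.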
